A study of Drosophila melanogaster with 26 samples.

Results

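The odorant-binding protein (Obp) family was followed in the larval fat body of Drosophila melanogaster, the organ that combines roles of liver and adipose tissue in the fly. All features whose name begins with Obp and a number were taken as members, which gave 44 of 14659 features. Of these, 14 had a value above 0 in at least 1 library and 30 were listed at 0 in all 26 libraries. Current RefSeq annotation holds 8 more genes of the family under other names in the table: Pbprp1 (Obp69a), Pbprp3 (Obp83a), Os-E (Obp83b), Pbprp4 (Obp84a), CG13027 (Obp73a), Pbprp2 (Obp19d), Pbprp5 (Obp28a) and lush. All 8 were listed at 0 in every library.

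Odorant-binding proteins are small, secreted proteins, mostly held together by disulfide bridges, that carry hydrophobic molecules in a buried pocket. They are best known from the fluid around olfactory and taste neurons, where lush, for example, takes part in the detection of a male pheromone. Many members are also made outside sense organs, among them in fat body, glia, epidermis and the male reproductive tract, and what most of them carry there is not established. The family divides by its cysteines: minus-C members, such as Obp99b, Obp99c, Obp99a and Obp44a, lack a pair of the conserved cysteines, plus-C members such as Obp49a carry additional ones, and Obp83cd and Obp83ef hold a doubled domain.

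The study compared high-sugar feeding (0.7 M sucrose) with a control diet (0.15 M sucrose) in female larvae collected at the wandering stage that ends the third larval instar, and RNA was sequenced after removal of ribosomal RNA. The 6 groups were w1118 cg on high sugar (n = 6) and control diet (n = 6), 60100 r4 on high sugar (n = 4) and control diet (n = 4), and w1118 r4 on high sugar (n = 3) and control diet (n = 3). In every group males of a control stock of the Vienna Drosophila Resource Center (w1118, named 60000 in the genotype labels, or 60100) had been crossed to females with UAS-Dcr2 on the X chromosome and a GAL4 driver, so that all larvae, controls included, carried a driver and a Dicer-2 transgene. The drivers were cg-GAL4, a driver active in fat body and blood cells, and r4-GAL4, a fat body driver. Tissue was obtained by dissection or by shearing with centrifugation, and the labels do not tell which library came from which.

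Replicate numbers fell into 5 blocks, 13-21 and 49-54 (w1118 cg), 55-63 (w1118 r4), and 67-76 and 83-92 (60100 r4), and each block held both diets. Each deposited value is a ratio in which the 75th percentile of the library is set to 1, so a level of 1 stands for that upper quartile; the quartile had been taken over different numbers of features in 4 sets of libraries, and sequencing depth is unknown. Levels of different genes are set side by side on the premise that the values, which the submitters' notes credit to Cufflinks, are scaled by transcript length. Diet was therefore tested within blocks, and driver and stock after a common rescaling. Nothing in the labels says that replicates came from separate cultures, so p-values measure the spread between these libraries, and in bulk tissue fewer cells of a type and less RNA per cell cannot be told apart. Replicates 67 and 83 (median absolute log2 deviation over features 0.129) and 75 and 91 (0.176) were nearer to each other than the other pairs of libraries of 1 group (0.185 to 0.728). All 12 tested markers of the fat body list were present, with summed levels of 5328 to 15048.

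The family was represented in fat body by few genes at very different levels. The detected members came from 8 of the 18 sections of the polytene chromosomes after which the genes are named. In the 99 cluster 3 of 4 members were above 0 in some library, in the 83 cluster 3 of 3, in the 56 cluster 3 of 9 and in the 57 cluster 1 of 5, and Obp8a, Obp18a, Obp44a and Obp49a, each the only member of its section, were the others. None of the 5 members of the 50 cluster, the 3 of the 58 cluster or the 3 of the 19 cluster was above 0. These counts cover only the members taken by name. Obp83a (Pbprp3) and Obp83b (Os-E) of section 83 and Obp19d (Pbprp2) of section 19 are not in them and were listed at 0. The share of members listed at 0 throughout was 68.2%, against 31.1% of all features and 4.94% of 81 features named as ribosomal proteins, which every cell uses. A listed 0 can be a failed estimate, and no depth is known, so absence of these transcripts was not established. Obp22a, Obp51a and Obp56g, known from the male seminal fluid, and Obp59a, known from humidity sensing, were among the members at 0, as were all 6 male accessory gland markers.

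Of the 14 detected members, 9 had a mean level of at least 0.1 and entered the tests, and 8 of these had a mean of at least 1. Obp99b (CG7592) averaged 5875 over the 26 libraries. Obp99c (CG7584) followed at 150.2. The next members averaged 6.86 (Obp83ef, CG31557), 6.10 (Obp99a, CG18111), 4.45 (Obp56d, CG11218) and 4.09 (Obp44a, CG2297). Obp49a (CG30052) averaged 1.23, Obp83cd (CG15582) 1.17 and Obp56a (CG11797) 0.457. Only Obp99b, Obp99c, Obp83ef, Obp99a and Obp83cd were above 0 in all 26 libraries, and a single gene, Obp99b, made up 96.1% to 98.3% of the summed level of the family in every library.

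The 5 detected members below the testing filter differed in where they were above 0. Obp83g, which lies next to Obp83ef, was above 0 in 8 of 8 libraries of 60100 r4, at 0.125 to 0.312, and was listed at 0 in the other libraries. Obp56e, next to Obp56d in the 56 cluster, was above 0 in 4 of 4 high-sugar libraries of 60100 r4, at 0.1197 to 0.540, and listed at 0 elsewhere, the 60100 r4 controls included. Obp57d, a member known from taste organs, was above 0 in 14 libraries at no more than 0.168, Obp18a in 3 and Obp8a in 1. The libraries of Obp57d came from all 6 groups and included every library of 60100 r4. No test was made on these genes. The number of members above 0 per library was 12 to 14 in 60100 r4 on high sugar, 11 in 60100 r4 controls and 6 to 10 in w1118 libraries. The number of all features above 0 ran from 7778 to 8709 in 60100 r4 and from 6183 to 8360 in w1118.

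**Figure D1:**
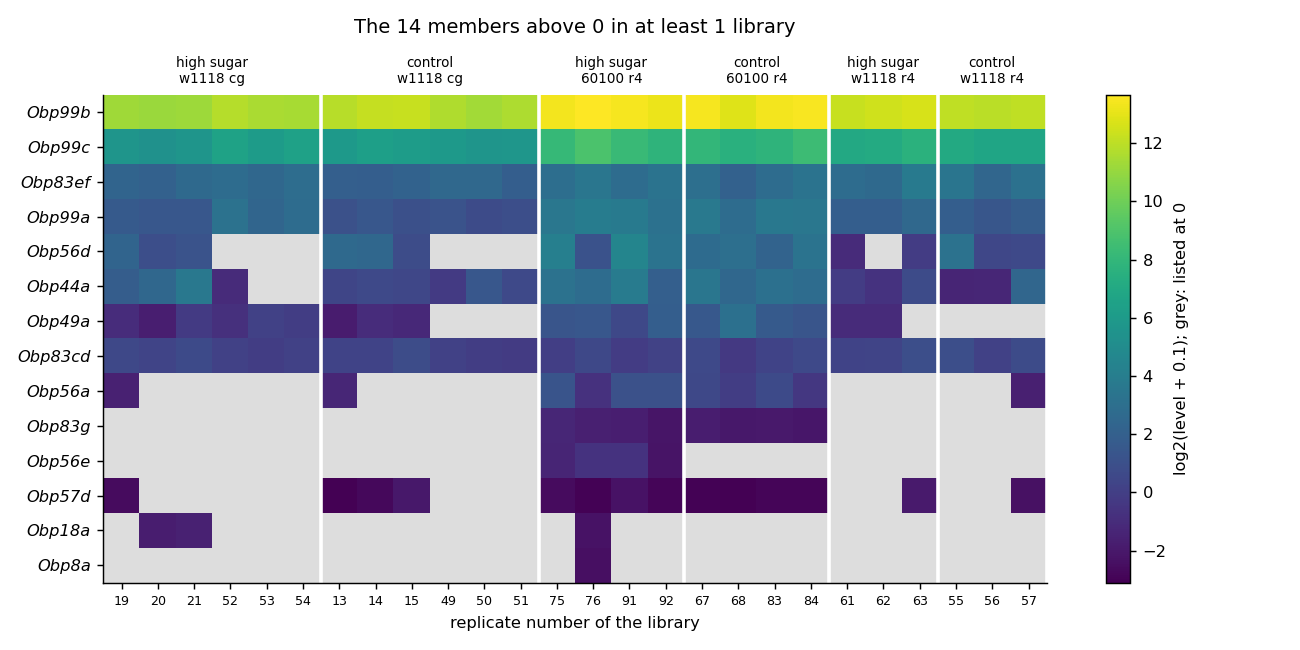
Heat map of the 14 members above 0 in at least 1 library (down) in each of the 26 libraries (across, by replicate number), coloured by log2(level + 0.1), with grey for values listed at 0. Obp99b and Obp99c stand above the others in all libraries, Obp83g is filled only in the 8 libraries of 60100 r4 and Obp56e only in its 4 high-sugar libraries.

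Diet changed few members beyond the spread between libraries. Over all blocks 1 of the 9 tested members passed at an adjusted p below 0.05, Obp99a, which was higher, against 28.3% of the 6896 features tested and 11.1% called higher. In w1118 cg 3 members passed, against 13.8% of all features: Obp99a and Obp49a were higher on high sugar, as were 7.22% of all features, and Obp99b was lower, as were 6.6%. In w1118 r4 1 member passed, Obp56d, which was lower, against 19.2% of all features called and 10.9% called lower. In 60100 r4 0 members passed with limma (against 23.9% of all features), and 0 of the 9 had an unadjusted p below 0.05. The median log2 change of the 9 members over all blocks was 0.00, against -0.08 for all features tested.

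The response to diet differed between the 3 backgrounds for 2 members, Obp99b and Obp49a (joint F test in limma, against 12% of all features). It also differed between both blocks of the same genotype, w1118 cg, for 5 members: Obp99b, Obp99c, Obp99a, Obp44a and Obp49a (against 11.8% of all features). Within a block alone, 2.22% of all features were called in block 13-21 and 21.7% in block 49-54. For these genes the change in w1118 cg is a mean over blocks that moved differently, and values are given by block below.

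Obp99b, a minus-C member also known as tsx and made in the fat body of adult heads, was the most abundant or second most abundant transcript of the fat body. It ranked first among all features in 21 of 26 libraries. In the other 5, all of them w1118 cg on high sugar, it ranked second, behind the storage protein gene Lsp2 in 3 and behind the salivary glue gene Sgs7 in 2. Its share of the summed levels of a library was 4.77% to 7.65% in w1118 cg on high sugar and 7.57% to 9.75% in w1118 cg controls. In 60100 r4 it was 14.8% to 17.9% on high sugar and 13.5% to 17.1% on control diet, and in w1118 r4 it was 11.2% to 12.5% on high sugar and 9.28% to 11.1% on control diet.

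In w1118 cg, Obp99b levels were 2298 at the lowest, 2707 at the median and 3498 at the highest on high sugar, and 2554, 3431 and 4929 on control diet. The mean was 2749 ± 461 on high sugar and 3680.4 ± 930.4 on control diet (SD, n = 6 each), with overlapping groups. Averaged over both blocks Obp99b fell by 0.40 ± 0.11 (SE, log2; adjusted p = 0.0150). This fall came from 1 block. In block 13-21 the high-sugar libraries had 2515, 2298 and 2329.6, below all of the controls at 3665, 4641 and 4929, and the change was -0.88 ± 0.15 (adjusted p = 0.00247). In block 49-54 the high-sugar libraries had 3498, 2955 and 2899, overlapping the controls at 3197, 2554 and 3096 (change 0.08 ± 0.15, adjusted p = 0.780). The difference between the blocks was 0.96 ± 0.21 (adjusted p = 0.00537). Quantile normalization sets a value by its rank, so for a gene ranked first or second in every library its adjusted p of 0.402 is no test of this difference.

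The other backgrounds did not share the fall of Obp99b. In w1118 r4 the high-sugar libraries had 4822, 5519.9 and 6443, and the controls 4294, 3861 and 4312. All high-sugar libraries lay above all controls, but the change of 0.42 ± 0.15 missed the threshold (adjusted p = 0.0556). It passed in fits without replicate 13, 61, 67 or 68 (0.42 to 0.52, adjusted p = 0.0320 to 0.0452). In 60100 r4 the levels were 10720.4, 13019.7, 11343 and 9119 on high sugar and 11046, 7549, 10638.5 and 11488 on control diet, which overlapped (0.13 ± 0.13, adjusted p = 0.520). The test of a difference between backgrounds gave an adjusted p of 0.0129 for Obp99b, and 0.131 when group means replaced block means.

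**Figure D2:**
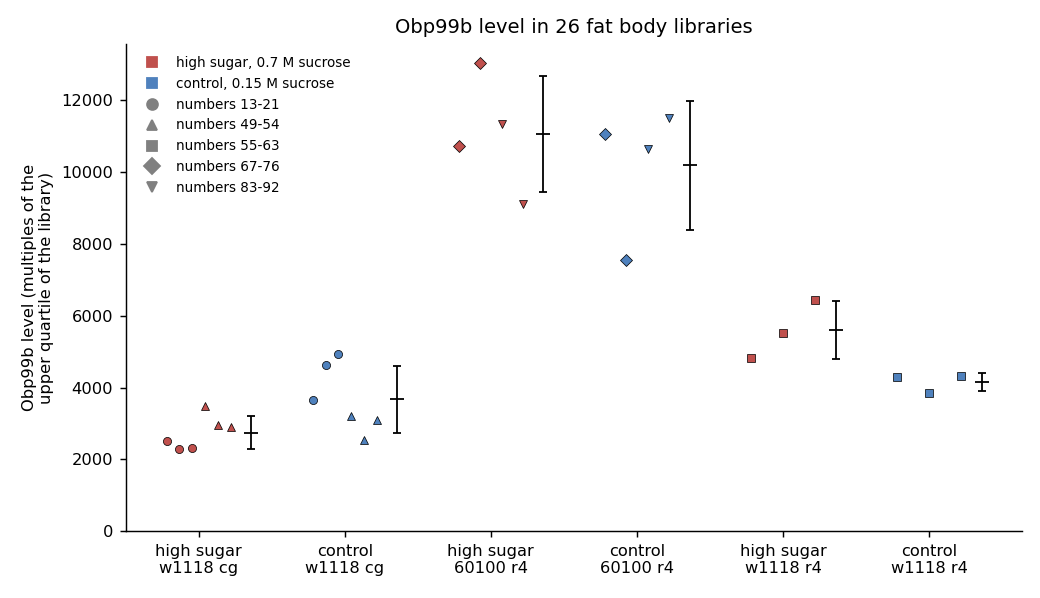
Level of Obp99b (ratio to its library's upper quartile, linear axis from 0) in each of the 26 libraries, red for high sugar and blue for control diet, with symbols for the number blocks and bars for the mean ± SD of a group. In block 13-21 of w1118 cg the high-sugar libraries sit at 2298 to 2515 and the controls at 3665 to 4929, while in block 49-54 both diets overlap. On these deposited levels the libraries of 60100 r4 lie above those of both other backgrounds. After rescaling the lowest of 60100 r4 (6225, control diet) lies below the highest of w1118 r4 (6769, high sugar).

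Obp99b also separated the backgrounds. After rescaling, its mean was 10964 ± 2288 in 60100 r4 and 5919.8 ± 861 in w1118 r4 on high sugar, and 8662 ± 1639 in 60100 r4 and 4276 ± 397 in w1118 r4 on control diet (SD, n = 4 and 3). The stock difference was 0.88 ± 0.21 on high sugar (adjusted p = 0.00370) and 1.0002 ± 0.21 on control diet (adjusted p = 0.00360), and the groups did not overlap on either diet. It missed the threshold without block 67-76 on high sugar (0.72, adjusted p = 0.0550) and without block 83-92 on control diet (0.87, adjusted p = 0.0710). Between drivers, Obp99b was lower with cg than with r4 on high sugar, at 2829 ± 529.7 (n = 6) and 5919.8 ± 861 (n = 3), a difference of -1.08 ± 0.19 (adjusted p = 0.000272). On control diet the driver difference was -0.17 ± 0.19 (adjusted p = 0.503). The order of mean levels was thus 60100 r4 on high sugar, 60100 r4 on control diet, w1118 r4 on high sugar, w1118 r4 on control diet, w1118 cg on control diet and w1118 cg on high sugar. Neighbours in this order overlapped in their rescaled library values, apart from w1118 r4 on high sugar and on control diet, whose difference missed the threshold. The last pair, w1118 cg on control diet and on high sugar, overlapped and was called different within blocks.

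Obp99c and Obp99a lie in the same cluster of minus-C genes as Obp99b, with Obp99d, listed at 0 everywhere, between Obp99c and Obp99b. Only Dup99B, a seminal peptide gene, separates Obp99d from Obp99b in RefSeq. For Obp99b, Obp99c and Obp99a the diet changes were -0.88, -0.60 and 0.35 in block 13-21, 0.08, 0.63 and 1.84 in block 49-54, 0.42, 0.40 and 0.40 in block 55-63, 0.37, 0.75 and 0.48 in block 67-76, and -0.12, -0.07 and -0.08 in block 83-92. All 3 had a higher change in block 49-54 than in block 13-21; changes were not compared between genes.

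Obp99c ranked between 14 and 137 among all features of a library. In w1118 cg its levels were 40.9 at the lowest, 59.4 at the median and 95.5 at the highest on high sugar, and 48.8, 62.8 and 82.1 on control diet. Its change with diet in w1118 cg was 0.02 ± 0.16 (adjusted p = 0.978), the mean of 2 opposite values: -0.60 ± 0.23 in block 13-21 and 0.63 ± 0.23 in block 49-54. Neither value passed alone (adjusted p = 0.223 and 0.0542), while their difference did (1.24 ± 0.32, adjusted p = 0.0160; 0.184 under quantile normalization). In w1118 r4 the levels were 127, 144 and 199 on high sugar and 138, 106 and 108 on control diet, and in 60100 r4 they were 282, 494, 301 and 224 on high sugar and 258, 190, 223 and 334 on control diet. The groups overlapped in both, and over all blocks the change was 0.21 ± 0.15 (adjusted p = 0.305). Without block 13-21 it was 0.45 ± 0.14 and passed (adjusted p = 0.0202).

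Obp99c was lower with the cg driver than with r4 on both diets, with no overlap between the groups. Rescaled means were 68.1 ± 24.5 with cg and 166.0 ± 38.9 with r4 on high sugar (-1.34 ± 0.28, adjusted p = 0.00107), and 66.4 ± 11.6 with cg and 121 ± 18.9 with r4 on control diet (-0.87 ± 0.28, adjusted p = 0.0211). The call on control diet was lost without replicate 55 (-0.75, adjusted p = 0.0982) or 57 (-0.90, adjusted p = 0.0607). Between stocks the rescaled mean was 326 ± 138 in 60100 r4 and 166.0 ± 38.9 in w1118 r4 on high sugar (0.91 ± 0.30, adjusted p = 0.0295), and 213 ± 52.9 in 60100 r4 and 121 ± 18.9 in w1118 r4 on control diet (0.80 ± 0.30, adjusted p = 0.0976). The stock call on high sugar was lost without replicate 61, 62, 76 or 91 (0.66 to 0.92, adjusted p = 0.0577 to 0.130), without block 67-76 (0.61, adjusted p = 0.254), on averaging replicate 67 with 83 and 75 with 91 (adjusted p = 0.0577), and under quantile normalization (adjusted p = 0.0974) or a common upper quartile (adjusted p = 0.153).

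Obp99a was the member that rose on high sugar over all blocks (0.66 ± 0.18, adjusted p = 0.0111). The rise was largest in block 49-54 of w1118 cg, with 9.27, 4.99 and 6.86 on high sugar and 2.18, 1.58 and 1.79 on control diet (1.84 ± 0.27, adjusted p = 5.12e-05). All high-sugar libraries of that block lay above its controls. In block 13-21 the levels were 3.004, 2.70 and 2.63 on high sugar and 1.99, 2.69 and 1.85 on control diet (0.35 ± 0.27, adjusted p = 0.677), and the blocks differed by 1.49 ± 0.38 (adjusted p = 0.0128). Over both blocks of w1118 cg Obp99a rose by 1.096 ± 0.19 (adjusted p = 0.000461). Without block 49-54 the change over the remaining blocks was 0.31 ± 0.14 (adjusted p = 0.134).

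Tissue markers also moved with diet in block 49-54. On high sugar 7 of 10 salivary gland, 4 of 4 Malpighian tubule, 7 of 8 haemocyte, 5 of 17 midgut, 3 of 4 tracheal and 2 of 3 imaginal disc markers were lower there, and 7 of 12 fat body and 1 of 4 glial markers were higher. Of 10 muscle markers 2 were higher and 1 was lower. The summed salivary gland markers were 5.58 to 18.5 on high sugar and 33.8 to 604 on control diet, and the summed fat body markers were 10616 to 12419 on high sugar and 5328 to 7219 on control diet. In block 13-21 the calls in these lists were 1 fat body marker, lower on high sugar. The summed salivary gland markers there were higher than in block 49-54, at 2720 to 6053 on high sugar and 2181 to 3655 on control diet. The part of these tissues in the changes of Obp99a, Obp49a and Obp44a in block 49-54 was not tested.

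In w1118 r4 Obp99a had 3.70, 3.63 and 5.90 on high sugar and 3.74, 2.56 and 3.54 on control diet (0.40 ± 0.27, adjusted p = 0.308). In 60100 r4 it had 11.6, 15.3, 14.2 and 8.98 on high sugar and 12.8, 7.08, 12.4 and 11.5 on control diet (0.20 ± 0.23, adjusted p = 0.569). Diets overlapped in both, and the level was higher in 60100 r4 than in w1118 r4 without overlap. The stock difference was 1.39 ± 0.37 on high sugar (adjusted p = 0.00829) and 1.42 ± 0.37 on control diet (adjusted p = 0.0177). The call on control diet was lost without replicate 56, 67 or 83 (1.23 to 1.34, adjusted p = 0.0519 to 0.0950), without block 67-76 (1.58, adjusted p = 0.0655) or 83-92 (1.26, adjusted p = 0.164) and on averaging replicate 67 with 83 and 75 with 91 (adjusted p = 0.0635). The call on high sugar was lost without block 67-76 (1.23, adjusted p = 0.0879). No driver difference passed for Obp99a (-0.02 ± 0.34 on high sugar, adjusted p = 0.973, and -0.64 ± 0.34 on control diet, adjusted p = 0.151).

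Obp44a, a minus-C member known from glia of the larval brain, behaved in opposite ways in both blocks of w1118 cg. In block 13-21 it had 3.47, 5.68 and 12.2 on high sugar, all above the controls at 1.23, 1.41 and 1.26 (2.18 ± 0.84, adjusted p = 0.230). In block 49-54 it had 0.394 in 1 high-sugar library and was listed at 0 in the other 2, all below the controls at 0.729, 2.64 and 1.44 (-3.15 ± 0.84, adjusted p = 0.0105). The difference between the blocks was -5.33 ± 1.19 (adjusted p = 0.00601), and their mean was -0.49 ± 0.60 (adjusted p = 0.676). In w1118 r4 the levels were 0.818, 0.528 and 1.52 on high sugar and 0.285, 0.309 and 5.40 on control diet, and in 60100 r4 they were 9.26, 6.93, 14.6 and 3.83 on high sugar and 11.3, 5.62, 8.47 and 7.03 on control diet. The diets overlapped in both. Although the deposited levels of 60100 r4 lay above those of w1118 r4 on both diets, the stock differences of 2.91 ± 1.26 (high sugar, adjusted p = 0.0864) and 2.79 ± 1.26 (control diet, adjusted p = 0.166) did not pass. The difference on high sugar passed in limma with a pseudocount of 1 (2.15, adjusted p = 0.0281). After the rescaling used for these tests the stocks overlapped on control diet (lowest 4.63 in 60100 r4, highest 5.74 in w1118 r4). On high sugar they stayed apart (lowest 3.46 in 60100 r4, highest 1.60 in w1118 r4). Summed levels of the 8 glial markers were 5.64 to 7.93 on high sugar and 4.12 to 4.95 on control diet in block 13-21, and 5.89 to 6.36 on high sugar and 3.04 to 3.87 on control diet in block 49-54. On high sugar the sum of deposited levels was 2.35 to 4.43 in 60100 r4 and 2.99 to 4.95 in w1118 r4. Salivary gland sums of both blocks are given above. The part of glia or of salivary gland in the pattern of Obp44a was not tested.

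In the 83 cluster 0 diet changes passed for Obp83ef and Obp83cd with limma, and 0 had an unadjusted p below 0.05. Obp83ef had 4.29 at the lowest, 5.76 at the median and 7.48 at the highest in w1118 cg on high sugar, and 3.62, 4.12 and 5.96 on control diet. In w1118 r4 it had 6.96, 6.22 and 13.4 on high sugar and 10.6, 5.40 and 8.91 on control diet. Diet groups overlapped in all 3 backgrounds, and the change over all blocks was 0.28 ± 0.15 (adjusted p = 0.151). The only difference that passed was between drivers on control diet, -0.79 ± 0.29 (adjusted p = 0.0393), with overlapping groups. That call was lost without replicate 13, 14, 15, 51, 55 or 57 (-0.76 to -0.59, adjusted p = 0.0588 to 0.201) and without block 13-21 (-0.53, adjusted p = 0.285).

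Obp83cd stayed between 0.701 and 1.85 in all 26 libraries, and passed in 0 of the comparisons as set. Its stock difference on high sugar was -0.45 ± 0.25 (adjusted p = 0.185), and -0.70 with a common upper quartile (adjusted p = 0.0294) and -0.64 after quantile normalization (adjusted p = 0.0440). Its change over all blocks was -0.02 ± 0.12 (adjusted p = 0.931). Obp83cd and Obp83ef overlap by 92 bases in RefSeq. Whether the counting used strand is not given in the sources used here, so how reads from the overlap were assigned is not known.

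The 56 cluster was marked by values at 0 in whole blocks. Obp56d was listed at 0 in all 6 libraries of block 49-54, high sugar and control alike. In block 13-21 it had 4.80, 1.79 and 2.22 on high sugar and 6.07, 5.59 and 1.60 on control diet. In w1118 r4 Obp56d had 0.382, 0 and 0.823 on high sugar, all below the controls at 9.08, 1.302 and 1.44, and it fell there by 2.93 ± 0.83 (log2, adjusted p = 0.0195). The call was lost without replicate 55 (-2.05, adjusted p = 0.110) or 62 (-2.02, adjusted p = 0.122), and with a pseudocount of 1 (-1.50, adjusted p = 0.0873). In 60100 r4 it had 17.4, 2.08, 22.8 and 9.46 on high sugar and 6.55, 8.10, 4.58 and 9.69 on control diet, with overlapping diets (0.44 ± 0.72, adjusted p = 0.710).

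Digestive enzyme genes of the midgut, a tissue next to the fat body, ran beside Obp56d in part. Their summed level in w1118 r4 was 4.66 to 7.07 on high sugar and 63.8 to 168 on control diet, and 6 of 17 tested midgut markers were lower and 1 higher on high sugar there. In 60100 r4 the sum was 76.2 to 198 on high sugar and 12.5 to 172 on control diet. In block 49-54, where Obp56d was at 0, the sum was 2.18 to 2.56 on high sugar and 5.62 to 81.7 on control diet. Markers of epidermis and cuticle summed to at most 0.313 on high sugar and 0.295 on control diet in block 49-54. In block 13-21 the sum was 20.3 to 61.6 on high sugar and higher on control diet (up to 90.5). In w1118 r4 it was 6.31 to 21.4 on high sugar and 8.32 to 26.9 on control diet, which overlapped. In 60100 r4 it was 126 to 247 on high sugar and 53.2 to 125 on control diet. The part of midgut, epidermis or cuticle RNA in the values of Obp56d was not tested.

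Obp56a, from the same cluster, was above 0 in all 8 libraries of 60100 r4 and in only 3 of the 18 libraries of w1118, at 0.235, 0.312 and 0.224. In 60100 r4 it had 2.32, 0.503, 1.96 and 2.02 on high sugar and 1.34, 0.848, 1.45 and 0.679 on control diet. Diets overlapped (0.48 ± 0.51, adjusted p = 0.532). Between the stocks it was higher in 60100 r4 on both diets without overlap (adjusted p = 1.93e-05 on high sugar and 0.00289 on control diet). Obp56a met the testing filter only through 60100 r4, as its mean was at most 0.0748 in each w1118 group. Since all w1118 r4 libraries on high sugar are listed at 0, no fold is given for that diet, and on control diet the difference was 2.71 ± 0.54 on the log2(level + 0.1) scale, which depends on the pseudocount.

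Obp49a, a plus-C member that in adult taste organs is required for bitter compounds to suppress the response to sugar, passed in w1118 cg through block 49-54. In that block it had 0.476, 1.01 and 0.846 on high sugar and was listed at 0 in all 3 controls (adjusted p = 0.000316). In block 13-21 it had 0.422, 0.214 and 0.742 on high sugar and 0.189, 0.420 and 0.341 on control diet, which overlapped (0.35 ± 0.53, adjusted p = 0.920). Averaged over both blocks the change was 1.72 ± 0.38 (adjusted p = 0.00405) with a pseudocount of 0.1, and 0.48 ± 0.19 (adjusted p = 0.105) with a pseudocount of 1. In w1118 r4 it had 0.396, 0.389 and 0 on high sugar and was listed at 0 in all 3 controls (adjusted p = 0.0508). That change passed without replicate 20, 21, 63, 67, 68, 91 or 92 (adjusted p = 0.00260 to 0.0487), all but replicate 63 from other groups.

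In 60100 r4 the diet change of Obp49a was of the opposite sign and did not pass. Levels were 2.38, 2.59, 1.33 and 3.64 on high sugar and 2.71, 8.49, 2.97 and 2.42 on control diet (-0.60 ± 0.46, adjusted p = 0.374). The difference in diet response between backgrounds gave an adjusted p of 0.0319. It was lost without replicate 68, 75, 76, 83, 84 or 91, all of 60100 r4 (adjusted p = 0.0514 to 0.102), on averaging replicate 67 with 83 and 75 with 91 (adjusted p = 0.0645) or all 4 pairs (adjusted p = 0.0831), with a pseudocount of 1 (adjusted p = 0.0811) and with group means in place of block means (adjusted p = 0.149). Over all blocks the change of 0.96 ± 0.38 missed the threshold (adjusted p = 0.0586). It passed without replicate 14, 20, 63, 68, 75, 76, 83 or 91 (1.03 to 1.15, adjusted p = 0.0217 to 0.0499).

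The stock difference of Obp49a held on both diets. On high sugar the rescaled mean was 2.42 in 60100 r4 and 0.278 in w1118 r4 (3.01 ± 0.64, adjusted p = 0.00159), and on control diet 60100 r4 averaged 3.49, against w1118 r4 listed at 0 (adjusted p = 1.63e-05). No library of w1118 r4 reached the lowest library of 60100 r4 on the same diet. The call remained under all 3 other scalings and without any 1 library (adjusted p at most 0.0148 on high sugar and 0.000218 on control diet without a library).

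**Figure D3:**
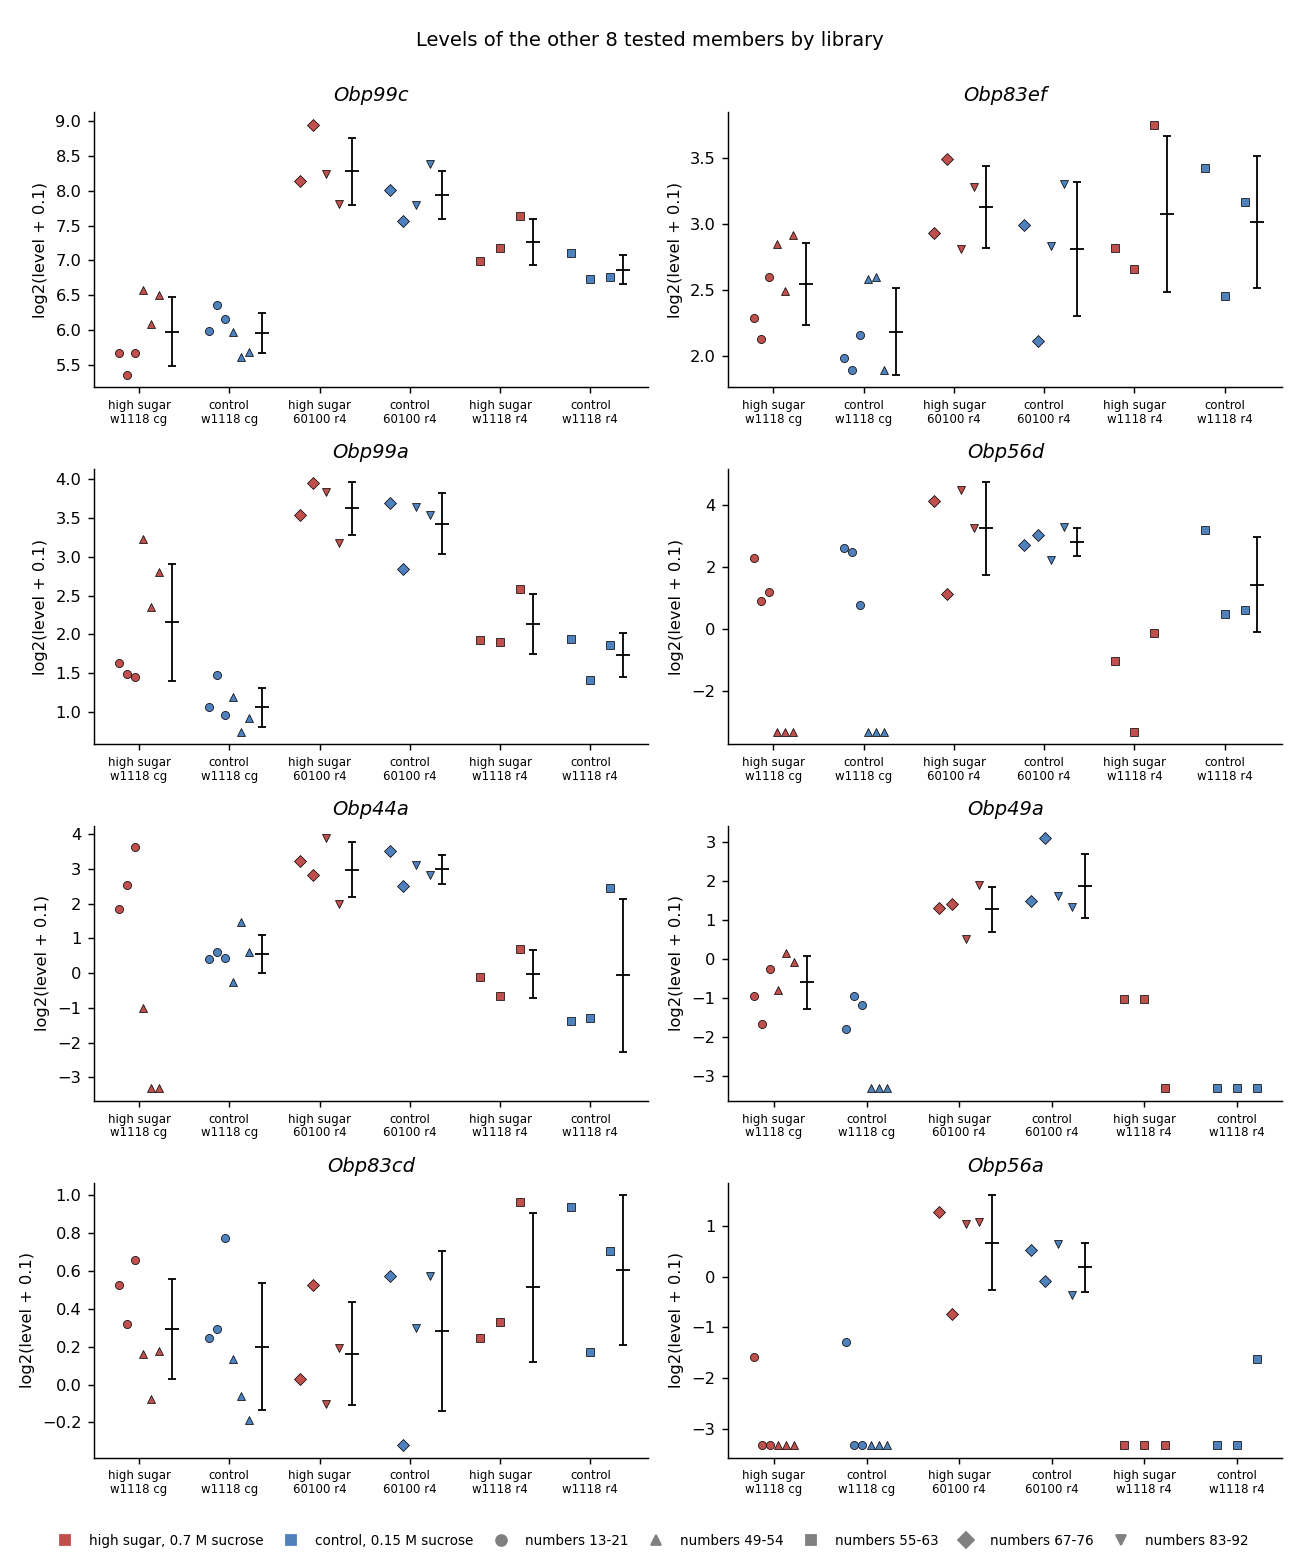
Levels of the 8 tested members other than Obp99b in each library as log2(level + 0.1), red for high sugar and blue for control diet, with symbols for the number blocks; bars are mean ± SD of these log values for groups with no library at 0, and points near -3.3 are values listed at 0. Obp99a, Obp49a and Obp56a are highest in 60100 r4, Obp83cd stays within 0.701 to 1.85, and Obp56d is at 0 in all 6 libraries of block 49-54.

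**Figure D4:**
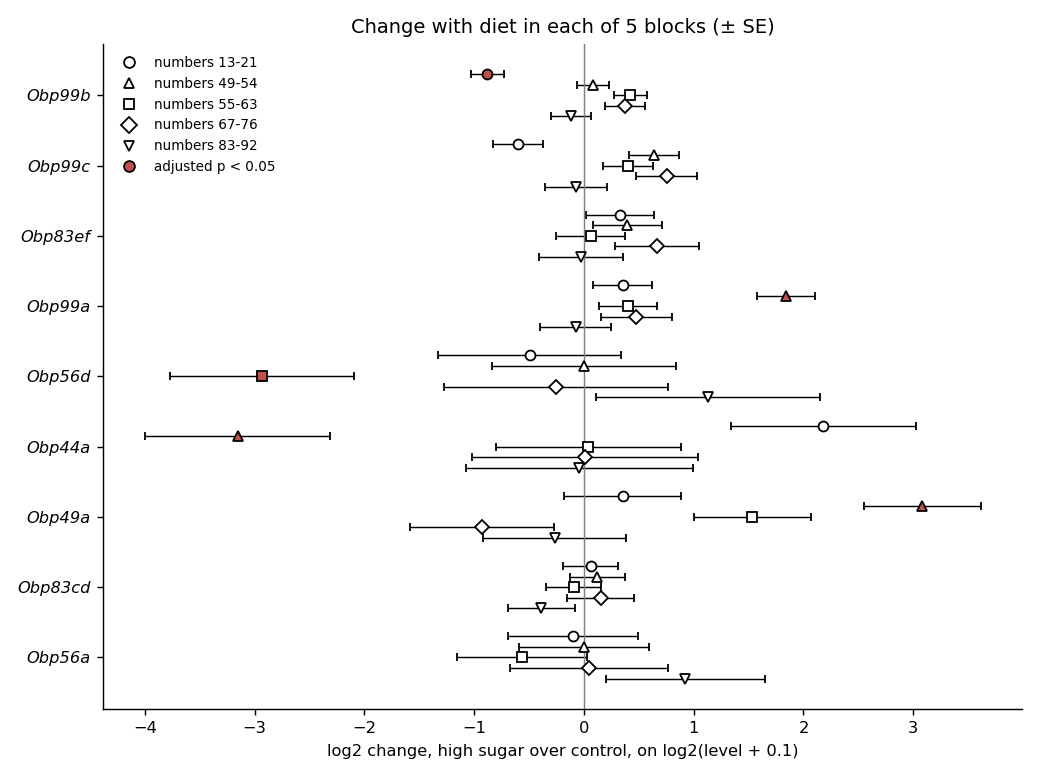
Change with diet (high sugar over control, log2 ± SE, limma) of the 9 tested members in each of the 5 number blocks, with filled symbols for an adjusted p below 0.05. Obp99b lies at -0.88 in block 13-21 and at 0.08 in block 49-54, Obp44a at 2.18 and -3.15, and Obp99a at 0.35 and 1.84, although both blocks carry the same genotype.

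Between 2 and 6 members passed in each comparison of stocks and drivers. Between stocks, 6 of 9 members passed on high sugar (Obp99b, Obp99c, Obp99a, Obp56d, Obp49a and Obp56a), all higher in 60100 r4, against 28.6% of all features called and 17.9% called higher. On control diet 4 passed (Obp99b, Obp99a, Obp49a and Obp56a), all higher in 60100 r4, against 9.69% of all features called and 6.26% called higher. Obp56a, which met the testing filter only through 60100 r4, is included in both counts and in the medians that follow. With a filter on a mean of at least 1, which leaves Obp56a out, 5 members passed on high sugar and 3 on control diet. Obp49a, still in both of these counts, met that filter only through 60100 r4. Its group means were 2.48 and 4.15 there and at most 0.619 in the w1118 groups. The median stock difference of the 9 members was 1.39 on high sugar and 1.11 on control diet, against 0.16 and 0.00 for all features tested. Between drivers 2 members passed on each diet, all lower with cg: Obp99b and Obp99c on high sugar (34.6% of all features called, 15.3% lower), and Obp99c and Obp83ef on control diet (34.8% called, 16.8% lower). Stock and driver cannot be told apart from number block and from the set over which the quartile was taken. For Obp56d the stock difference on high sugar was 4.69 ± 1.59 (adjusted p = 0.0314), with 1 of the w1118 r4 libraries listed at 0. It was lost without replicate 61, 62, 75 or 91 (3.76 to 4.92, adjusted p = 0.0697 to 0.146), and without block 67-76 (5.27, adjusted p = 0.104) or 83-92 (4.09, adjusted p = 0.174). It was also lost on averaging replicate 67 with 83 and 75 with 91 (adjusted p = 0.0860) or all 4 pairs (adjusted p = 0.118), and with a pseudocount of 0.01 (adjusted p = 0.0828).

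The choice of scaling moved the stock differences as a whole. The median of all features tested was 0.24 on high sugar and 0.22 on control diet with the deposited values, 0.16 and 0.00 after median-of-ratios scaling, and -0.02 and 0.00 with a common upper quartile. With a common upper quartile Obp99b differed by 0.60 between stocks on high sugar (adjusted p = 0.0441). Quantile normalization gives a gene that ranks first everywhere the same value in each library, so it sets the stock difference of Obp99b at 0.

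**Figure D5:**
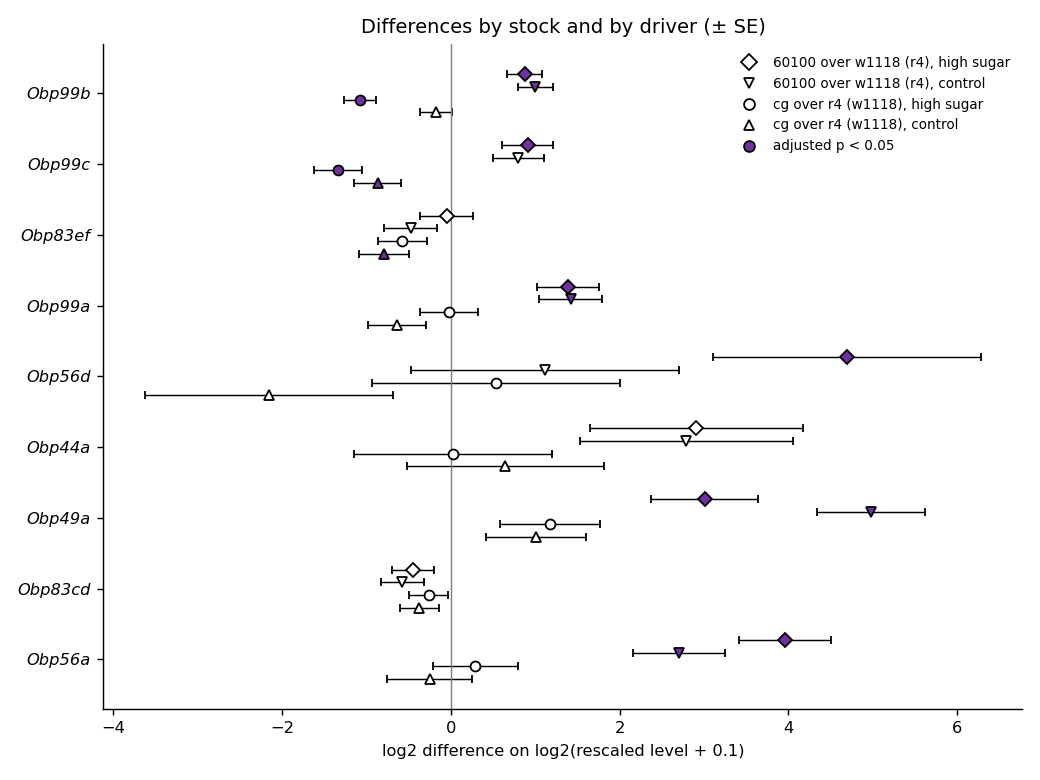
Differences between stocks (60100 over w1118, both with r4) and between drivers (cg over r4, both in w1118) on each diet for the 9 tested members, as log2 ± SE after median-of-ratios scaling, with filled symbols for an adjusted p below 0.05. The called stock differences all lie right of 0 and the called driver differences, of Obp99b, Obp99c and Obp83ef, left of it; values of Obp49a and Obp56a against groups listed at 0 depend on the pseudocount of 0.1.

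Markers of some other tissues moved with the stock. On high sugar 13 of 17 midgut, 5 of 10 muscle and 2 of 3 ring gland markers tested were higher in 60100 r4 than in w1118 r4, and on control diet 3, 1 and 2. Of the other lists, 2 of 4 glial and 1 of 3 imaginal disc markers were lower and 1 of 8 haemocyte markers was higher in 60100 r4 on high sugar. There 0 of 10 salivary gland, 0 of 4 tracheal and 0 of 4 Malpighian tubule markers were called by limma. On control diet 1 of 4 glial markers was lower in 60100 r4. The summed muscle markers were 25.6 to 80.8 in 60100 r4 and 12.9 to 15.3 in w1118 r4 on high sugar, and the summed cuticle markers, of which 9 of 14 are at 0 in every library, were 126 to 247 in 60100 r4 and 6.31 to 21.4 in w1118 r4, with 0 of 4 tested cuticle markers called. Ring gland markers summed to 33.98 to 55.7 in 60100 r4 and 4.92 to 5.85 in w1118 r4 on high sugar. Of the fat body markers 3 of 12 were higher and 1 lower on high sugar, and 0 were called on control diet, where the sums were 14009 to 15048 in 60100 r4 and 9155 to 12516 in w1118 r4. The sums by stock are of deposited levels, while the stock calls were made after rescaling. On control diet the divisors were 1.15 to 1.21 in 60100 r4 and 0.940 to 1.01 in w1118 r4, so part of the difference in sums is one of scale. The part of other tissues in the stock differences of Obp49a, Obp56a, Obp56d, Obp83g and Obp56e was not tested. Between drivers on control diet 3 of 8 haemocyte, 2 of 4 Malpighian tubule, 1 of 10 salivary gland and 1 of 3 imaginal disc markers were higher with cg. Lower with cg there were 1 of 10 muscle, 1 of 4 tracheal and 1 of 3 ring gland markers. Fat body (2 of 12 higher, 3 lower) and glial markers (1 of 4 each way) went both ways. On high sugar 3 of 8 haemocyte, 1 of 4 Malpighian tubule and 1 of 3 imaginal disc markers were higher with cg. Lower with cg there were 1 of 8 haemocyte, 1 of 17 midgut, 2 of 10 muscle, 2 of 3 ring gland markers and the 1 tested neuronal marker. Fat body (2 higher, 3 lower) and glial markers (1 each way) again went both ways. The part of other tissues in the driver differences of Obp99b, Obp99c and Obp83ef was not tested. In w1118 cg and w1118 r4 the haemocyte markers were lower on high sugar (7 and 6 of 8 tested), with sums of 3.46 to 8.26 on high sugar and 7.33 to 17.8 on control diet in w1118 cg, and 0 of 8 were called in 60100 r4. In w1118 cg this came from block 49-54, where 7 of 8 were lower (3.46 to 4.78 on high sugar and 13.6 to 17.8 on control diet), while 0 of 8 were called in block 13-21 (7.03 to 8.26 on high sugar and 7.33 to 10.04 on control diet).

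Most genes that work beside the family in sense organs were listed at 0. Of 18 odorant, gustatory and ionotropic receptors and their partners 14 were listed at 0 in all libraries and 0 reached a mean of 0.1. Of 27 other soluble carriers, such as the CheA, CheB and Npc2 genes, 19 were at 0 throughout and 7 were tested. Over all blocks 2 of these were called in limma, both lower on high sugar, against 28.3% of all features called in either direction. Npc2f fell by 0.36 ± 0.09 (adjusted p = 0.00676) and Npc2a, a sterol carrier with a mean level of 27.03, by 0.34 ± 0.12 (adjusted p = 0.0376). Npc2h changed by 0.42 ± 0.16 and missed the threshold (adjusted p = 0.0523). Between stocks 4 of the 7 carriers were higher in 60100 r4 on high sugar and 3 on control diet, against 17.9% and 6.26% of all features.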

How the data were processed

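Per the submitters' processing notes the reads were processed with TopHat 1.3.2, Bowtie 0.12.7 and Cufflinks 1.1.0; which annotation they used, and whether strand counted, is not stated. The deposited values, per the values themselves, are a ratio: the 75th percentile of each library equals 1 over 9608, 8320, 8467 or 9853 features in blocks 13-21, 49-54, 55-63 and the 2 blocks of 60100 r4. Levels are therefore not on 1 scale between these sets, a low level can be inflated or deflated with its library's quartile, and depth is unknown. Such values had not been foreseen when the tests were set for Cufflinks-type levels, and the same tests were kept.

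A pseudocount of 0.1 was added before taking log2. Testing used limma 3.58.1 with a mean-variance trend (R 4.3.3) on 6896 features, those averaging 0.1 or more; all tests were two-sided, and p-values were adjusted over these features after Benjamini and Hochberg with a threshold of 0.05. Fold changes of low genes are understated on this scale. Diet over all blocks came from a model of block and diet, diet in each background from 10 means of block and diet, and driver and stock from 6 group means after median-of-ratios scaling over the 5159 features above 0 in all libraries (divisors 0.853 to 1.21). Tests from the same model shared 1 estimate of the spread, and each model had its own. The diet tests were tried on simulated data with normal noise on the log scale. The driver and stock tests and their rescaling were not. Alternatives were other pseudocounts, filters and scalings, robust fits, background as a term, averaged replicates, and leaving out each block and each replicate; averaging 67 with 83 and 75 with 91, and group means for diet, were added after seeing the data. Names come from the table and from RefSeq by locus tag (13055 of 14659 features and 44 of 44 members matched). Coordinates and sequences are not reported here. Every member with a mean of at least 0.1 is named with its values. The members and lists were chosen with earlier results of these data known.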

Additional observations from a re-analysis of the deposited data

Results flagged for a closer look

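In 36 groups of 4 to 10 libraries examined for single libraries far from the rest, 4 stood out. For normally distributed values chance alone gives about 1 in 20 groups. Obp44a was at 2.64 in replicate 50 of the w1118 cg controls, with the others at 0.729 to 1.44. Obp49a was at 8.49 in replicate 68 of the 60100 r4 controls, with the others at 2.42 to 2.97. Obp56a was at 0.235 in replicate 19 of w1118 cg on high sugar and at 0.312 in replicate 13 of the w1118 cg controls, with all other libraries of these groups listed at 0. Where all other libraries are at 0, the rule flags a single value above 0 whatever its size. The rate of 1 in 20 does not apply to such groups.

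The response to diet differed between the 3 backgrounds for Obp99b (adjusted p = 0.0129) and Obp49a (adjusted p = 0.0319) in limma's joint F test. Between the blocks 13-21 and 49-54, which carry the same genotype, it differed for Obp99b (adjusted p = 0.00537), Obp44a (adjusted p = 0.00601), Obp99a (adjusted p = 0.0128), Obp99c (adjusted p = 0.016) and Obp49a (adjusted p = 0.0225). The call for Obp49a between these blocks was lost without replicate 14, 20 or 53 (adjusted p = 0.0550 to 0.0682) and with a pseudocount of 1 (adjusted p = 0.274). What differed between the blocks is not stated in the labels and was not tested.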

How the results depend on the processing

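No paired analysis was possible because the groups share no replicate numbers. Depth is unknown, and for members near 0 the pseudocount sets the size of a change. The counts of members called are small, so 1 gene moves them. Diet over all blocks called 1 member, and 2 with a pseudocount of 0.01, median-of-ratios scaling, quantile normalization, without block 13-21, 67-76 or 83-92, and with either averaging of 60100 r4 replicates; it called 0 without block 49-54, and 1 to 2 on leaving out single replicates. Diet in w1118 cg called 3, and 1 without block 49-54 (3 to 3 on leaving out replicates). Diet in w1118 r4 called 1; it called 0 with a pseudocount of 1 or group means, 2 with a pseudocount of 0.01, a filter on a mean of at least 1 or median-of-ratios scaling, 3 on averaging all 4 pairs of 60100 r4 replicates, and 0 to 3 on leaving out replicates. Diet in 60100 r4 called 0 members (0 to 0). The difference between backgrounds called 2, but 1 with a pseudocount of 1 or either averaging, 0 with group means and 1 to 3 on leaving out replicates; the difference between the w1118 cg blocks called 5, and 3 after quantile normalization (4 to 5). The driver called 2 members on control diet, and 4 after quantile normalization (0 to 2 on leaving out replicates), and 2 on high sugar, but 4 without block 13-21 and 5 without block 49-54 (2 to 2). The stock called 4 on control diet, and 2 without block 83-92 (3 to 4), and 6 on high sugar, and 2 without block 67-76 (4 to 6).

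Among changes called before or after the alternative, a direction was reversed in 2 cases; changes called in neither also turned sign, such as that of Obp44a with diet over all blocks (-0.94 to 0.66). Obp99b changed with diet in w1118 cg by 0.0819 without block 13-21, and its fall there was also lost with no filter (adjusted p = 0.0540) and with group means (adjusted p = 0.139). The driver difference of Obp44a on high sugar was -2.58 without block 13-21 and 2.63 without block 49-54. The cause was not tested.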
